A study of Mus musculus with 9 samples.

Results

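The genes described here encode the proteins of the mitochondrial ribosome. They were taken from the 9 deposited expression tables as every symbol made of Mrpl or Mrps, a number and at most 1 further letter. This gave 76 genes of 23992 symbols, 47 named Mrpl and 29 named Mrps, and for each gene the transcript with the most reads over the 9 libraries was used. All 76 passed the filter on low values (RPKM, a read density per transcript length and depth, had to reach 1 in 3 or more of the 9 libraries) and were tested with the 10702 genes that did so.

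The study compared mouse regulatory T cells, Foxp3-expressing CD4 T cells that restrain immune responses, after stimulation with different forms of interleukin-2 (IL-2). Ortho IL-2 is an engineered cytokine paired with an engineered receptor chain, oIL-2Rβ, whereas wild-type (WT) IL-2 acts through the native receptor. All 3 groups held Foxp3-GFP regulatory T cells of BALB/c origin, with spleen as the labelled source, that had been transduced with oIL-2Rβ linked to a human EGFR tag, so the controls carried the engineered receptor too. The cells had grown for 48 h with beads against CD3 and CD28 and 1000 IU/mL human IL-2, were enriched magnetically for the tag and were kept overnight without IL-2. They then received no IL-2, 20000 IU/mL WT IL-2 or 2000000 IU/mL ortho IL-2 for 4 h. Each group had 3 libraries. The labels do not say whether these came from separate cultures or animals, so p-values measure the spread between these libraries, which may be technical. No source used here gives the ages of the animals.

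Mitochondrial ribosomes translate the few proteins encoded by mitochondrial DNA, all of them core subunits of the respiratory chain and ATP synthase. Their RNAs are encoded in the mitochondrion, but every protein of the large (Mrpl) and small (Mrps) subunit is encoded in the nucleus, made in the cytosol and imported. Some of these proteins have counterparts in bacterial ribosomes and others are found only in mitochondria. IL-2 is known to drive growth and metabolic activation of T cells.

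The libraries held 16581624 to 58182835 reads in the transcripts taken. WT IL-2 library 1 and ortho IL-2 library 3 stood apart from the other libraries of their groups. A chi-square value per gene between libraries of a group was 24.4 to 36.7 for pairs with 1 of them and 5.08 to 7.82 for all other pairs. The share of reads outside these transcripts was 38.9% to 43.3% without IL-2, 29.1% to 34.9% with WT IL-2 and 25.7% to 33.0% with ortho IL-2, so this share did not overlap between the no IL-2 libraries and the others and cannot be told apart from the treatment. It was derived, not measured: the reads in the transcripts taken were set against the depth calculated back from the deposited RPKM. Reads only on transcripts that were not taken count as outside. All 8 regulatory T cell and T cell markers in the tables passed the filter, with a summed level of 6606 to 6644 CPM, the counts scaled to a common depth, without IL-2 and 9339 to 9831 with either cytokine. Il2ra carried this rise, from a mean of 1217 CPM without cytokine to 4994 for WT and 4845 for ortho IL-2. In each comparison 2 of the 8 markers rose, Foxp3 and Il2ra, and 4 fell, Ctla4, Ikzf2, Cd3g and Cd4. Of each list of 5 markers of B cells, of myeloid cells, of CD8 T and NK cells and of erythroid and stromal cells, 1 gene passed. The erythroid and stromal list summed to 278 to 292 CPM without IL-2 and 217 to 227 with either cytokine, with Pecam1 as the gene that passed, and the myeloid list to 10.4 to 12.8 and 6.30 to 8.42 CPM. The B cell list summed to 3.75 to 5.04 CPM and the CD8 T and NK list to 9.14 to 11.9 CPM over all libraries. In the group without IL-2, 1 CD8 T and NK marker was at 0, as was 1 erythroid and stromal marker with ortho IL-2. The part of these differences in the results below was not tested.

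Without IL-2, the members spanned a wide range of levels. On the RPKM scale, which corrects for transcript length and here uses TMM-scaled library sizes, their median was 12.9, against 13.5 over all genes tested. The 3 highest were Mrps21 (78.3), which encodes a small-subunit protein with a bacterial counterpart, Mrpl30 (70.5) and Mrpl9 (67.7). The 3 lowest were Mrpl17 (1.26), Mrps25 (2.04) and Mrps28 (2.40). Mrpl17 was counted on the longest transcript of all members, 6712 bases, where the median member had 1052.

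Summed over the 47 Mrpl members, the TMM-scaled RPKM was 889, 933 and 860 in the 3 libraries without IL-2, 969, 948 and 917 with WT IL-2 and 943, 934 and 1001 with ortho IL-2. The means were 894 ± 36.5, 944 ± 26.4 and 959 ± 36.5 (SD, n = 3 each), and the WT IL-2 libraries overlapped those without IL-2. The 29 Mrps members summed to 501, 521 and 498 without IL-2, 566, 561 and 557 with WT IL-2 and 543, 564 and 569 with ortho IL-2. Their means were 507 ± 12.6, 561 ± 4.46 and 559 ± 13.8 (SD, n = 3 each), and here each library with cytokine lay above each library without it. The deposited RPKM are not TMM-scaled, and their depth includes the reads outside these transcripts. In them the Mrpl sums were at most 562 without IL-2 and at least 589 with cytokine. The TMM factors themselves ran only from 0.987 to 1.026. The most abundant members weigh most in these sums, and no test was made of them. In bulk RNA, fewer cells of a type and less RNA per cell cannot be told apart. Library by library, all reads on members made up 0.142% to 0.164% of the reads in transcripts.

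**Figure D1:**
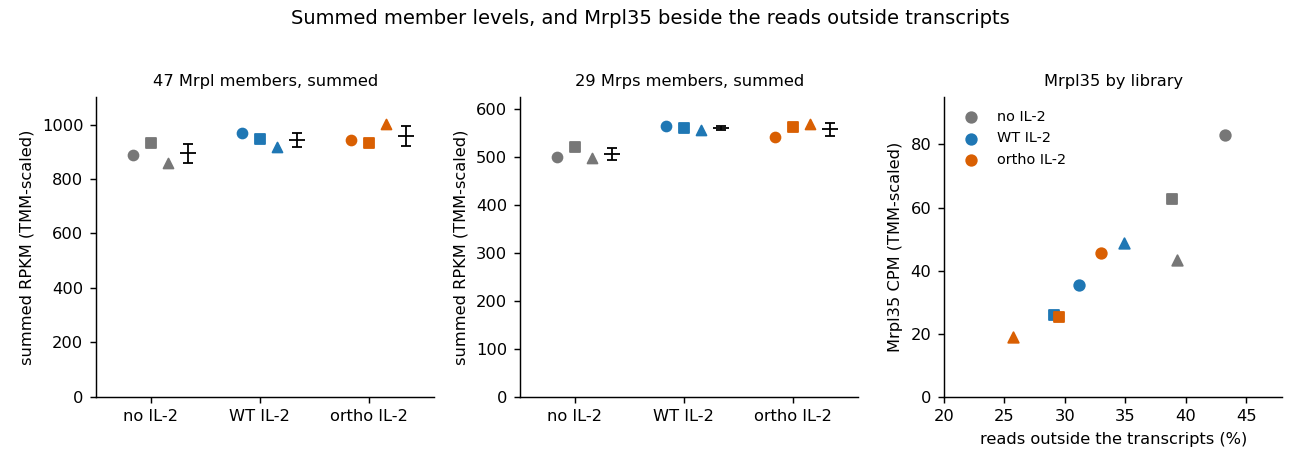
Summed TMM-scaled RPKM of the 47 Mrpl and the 29 Mrps members (vertical axes) in each library of the 3 groups, with mean and SD beside the points, and, on the right, the CPM of Mrpl35 against the percentage of reads outside the transcripts, 1 point per library. The Mrps sums without IL-2 (498 to 521) lie below all sums with cytokine (543 to 569). The Mrpl sums without IL-2 (860 to 933) overlap those with WT IL-2 (917 to 969) but not those with ortho IL-2 (934 to 1001). Mrpl35 is highest (82.8 CPM) in the library with the largest outside share (43.3%).

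With WT IL-2, 20 members rose against no IL-2, 1 fell and 55 did not pass the test. The rises were small, from 1.15-fold to 1.63-fold, and were led by Mrpl23, Mrpl12, Mrps18b and Mrps2. Of all genes tested, 25.0% were called higher and 22.9% lower, against 26.3% and 1.32% of the members, so the share of members called higher was close to that of all genes while calls in the lower direction were 1 of 76. In either direction, 21 of 76 members and 47.9% of all genes were called. The median log2 fold change was 0.14 over the members and 0.01 over all genes, and 59 of 76 members had a positive value, where 5473 of 10702 genes did. A rise of at least 1.5-fold was called for 2 members, against 8.33% of all genes, and 26 members had an unadjusted p under 0.05, against 55.1% of all genes. Calls rest on edgeR's quasi-likelihood test across all genes with Benjamini-Hochberg adjustment at a threshold of 0.05, two-sided. With the share of reads outside transcripts as a covariate, 3 of the 20 were still called higher (Mrpl17, Mrps2 and Mrps5) and all genes called higher went from 2675 to 1217. With library sizes set to the depth behind the deposited RPKM and no TMM, which changes both choices at once and which is called the deposited depth below, the median of all genes moved to 0.22, with 4630 genes called higher and 895 lower in place of 2675 and 2447. There 46 members were called higher and none lower. The members' median was 0.35 with the deposited depth, 0.081 under quantile normalization and 0.071 with the covariate. The number called lower was 2 without WT IL-2 library 3, ortho IL-2 library 1 or ortho IL-2 library 3.

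With ortho IL-2, 26 members rose, 3 fell and 47 did not pass the test. The 26 held all 20 that rose with WT IL-2, and both comparisons share the no IL-2 libraries. The rises ran from 1.18-fold to 1.75-fold. Of all genes, 28.5% were called higher and 27.4% lower, against 34.2% and 3.95% of the members, so that 29 of 76 members and 56.0% of all genes were called in either direction. The median log2 fold change was 0.13 over the members and 0.01 over all genes, with 57 of 76 values positive. A rise of at least 1.5-fold was called for 5 members, against 9.72% of all genes, and 36 members had an unadjusted p under 0.05, against 61.3% of all genes. The median was 0.20 when no IL-2 library 2 was left out, and the number called lower was then 1. That number was also 1 without ortho IL-2 library 3. With the outside share as a covariate none of the 26 was called higher, at an adjusted p under 0.05 in edgeR's quasi-likelihood test. All genes called higher then went from 3054 to 925 (8.64%). An unadjusted p under 0.05 was left for 6 of 76 members and 2981 of 10702 genes. With the deposited depth 55 members were called higher and 1 lower, with the median of all genes at 0.29 and 5707 genes called higher and 946 lower in place of 3054 and 2936. The members' median was 0.41 with the deposited depth (74 of 76 positive), 0.065 under quantile normalization (45 positive), 0.053 with the covariate (48 positive) and 0.20 without a filter on low values (65 positive).

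The levels of the 2 groups did not overlap, with the cytokine libraries higher, for 29 members (38.2%) with WT IL-2 and for 32 (42.1%) after ortho IL-2. Over all genes these shares were 30.3% and 33.9%. In the other direction the groups did not overlap for 5 members (6.58%) with WT IL-2 and 6 (7.89%) after ortho IL-2, where 28.5% and 32.2% of all genes did. The members' median standard error was 0.09 on the log2 scale in both comparisons.

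**Figure D2:**
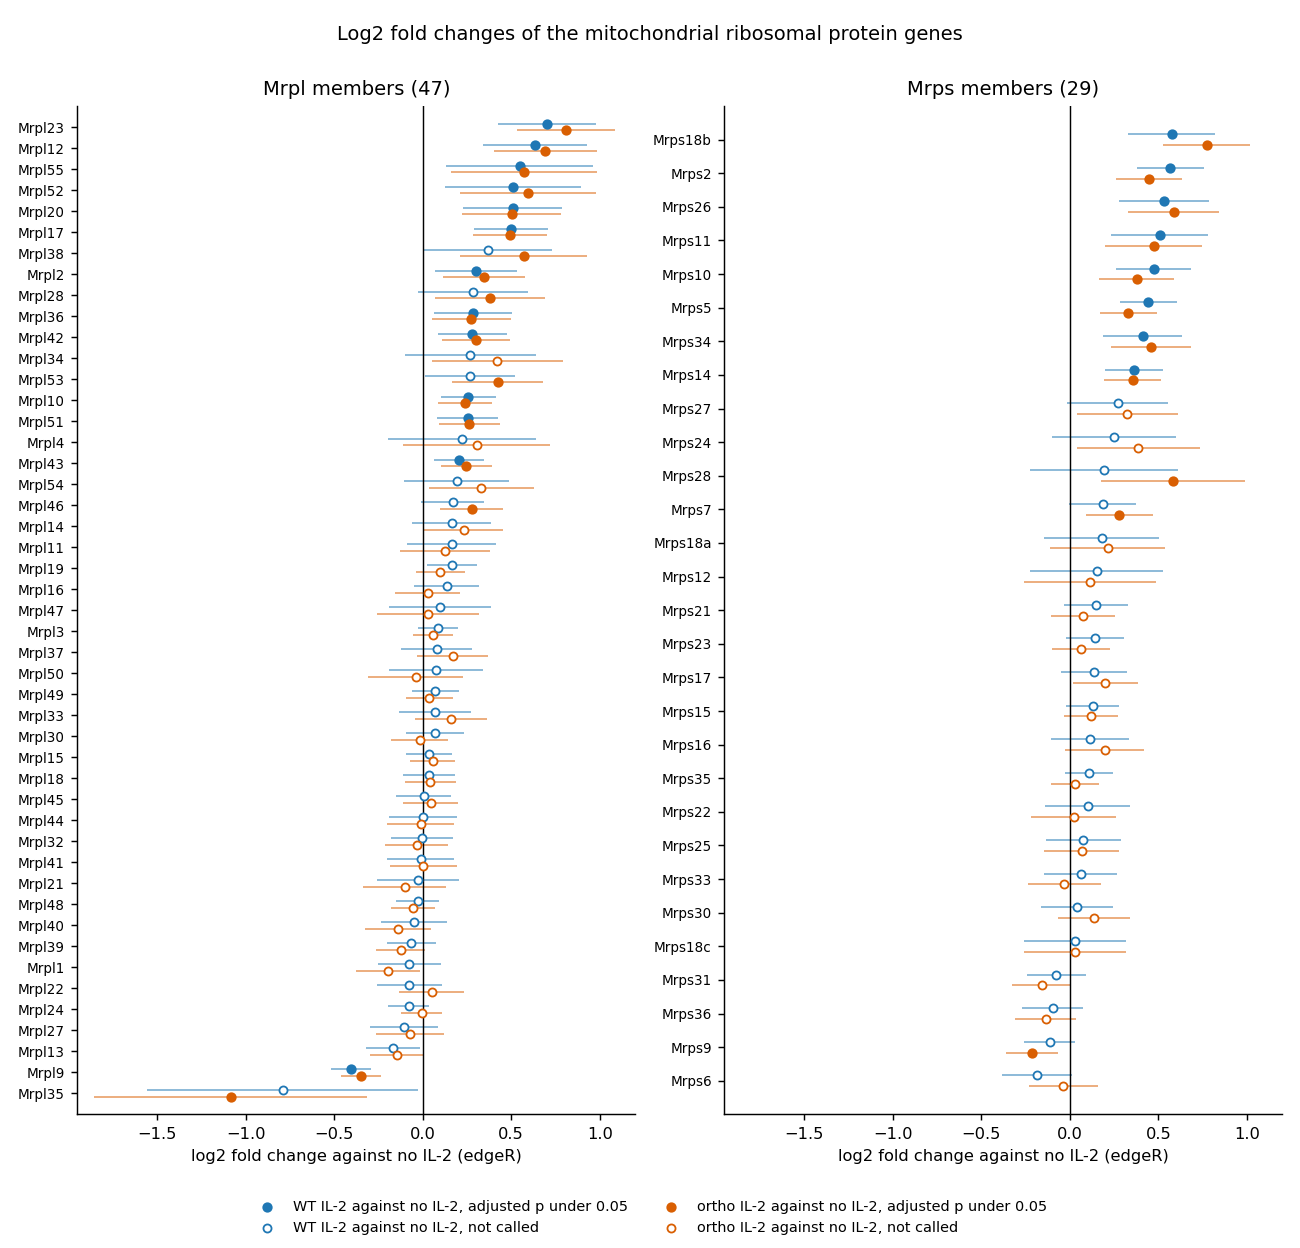
Log2 fold change against no IL-2 (horizontal axis) of each Mrpl (left) and Mrps (right) member with WT IL-2 (blue) and ortho IL-2 (orange), from edgeR with 95% confidence intervals as lines. Filled points passed the test at an adjusted p under 0.05. Mrpl23 and Mrps18b head their panels, and Mrpl9 and Mrpl35 lie at the lower end of theirs.

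By name, 12 of 47 Mrpl members rose and 1 fell with WT IL-2 (median log2 fold change 0.10), and 8 of 29 Mrps members rose and none fell (median 0.15). With ortho IL-2 the counts were 16 and 2 of 47 (median 0.10) and 10 and 1 of 29 (median 0.20). The difference between the 2 sets was not tested. The names do not follow the particle exactly: Mrps18a and Mrps30 are known to sit in the large subunit, and Mrps36 is known as a component of the 2-oxoglutarate dehydrogenase complex. Sorted by the particle, 12 of 49 large-subunit genes and 8 of 26 small-subunit genes rose with WT IL-2, and 16 and 10 with ortho IL-2. Sorted by descent, 13 of 46 genes with a bacterial counterpart and 7 of 30 mitochondria-specific genes rose with WT IL-2, and 16 and 10 with ortho IL-2. Called lower were 1 and 3 genes of the former class and none of the latter, and the difference between the classes was not tested.

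Mrpl23 had the largest rise of all members in both comparisons. It encodes a large-subunit protein whose bacterial counterpart lies at the exit of the peptide tunnel. Its level was 6.14, 8.30 and 6.30 CPM without IL-2, 11.5, 11.1 and 11.2 with WT IL-2 and 10.9, 12.4 and 13.1 with ortho IL-2, so no library with cytokine reached down to those without. The log2 fold change was 0.70 (SE 0.12, edgeR adjusted p = 0.0011) with WT IL-2 and 0.81 (SE 0.12, adjusted p = 0.00041) with ortho IL-2.

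Mrpl12 encodes the large-subunit stalk protein that is also known to bind the mitochondrial RNA polymerase. It measured 10.5, 10.5 and 9.48 CPM without IL-2, 18.4, 14.4 and 14.4 with WT IL-2, and 15.3, 14.7 and 19.1 with ortho IL-2. The highest value of each cytokine group was in WT IL-2 library 1 and ortho IL-2 library 3, and all 6 lay above the no IL-2 libraries. Its log2 fold change was 0.63 (SE 0.13, edgeR adjusted p = 0.0030) with WT IL-2 and 0.69 (SE 0.13, adjusted p = 0.0016) with ortho IL-2.

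Among the other large-subunit members, Mrpl52, Mrpl55, Mrpl20 and Mrpl17 rose in both comparisons by 0.49 to 0.59 on the log2 scale. Mrpl52, a mitochondria-specific protein, measured 10.4, 12.1 and 10.8 CPM without IL-2, 18.8, 14.2 and 14.4 with WT IL-2 and 14.1, 14.8 and 21.2 with ortho IL-2. Again the high values were those of WT IL-2 library 1 and ortho IL-2 library 3, without overlap with the no IL-2 group. With the outside share as a covariate its log2 fold change for ortho IL-2 was -0.010. The mitochondria-specific Mrpl55 was at a low level, 2.36, 3.04 and 2.39 CPM without IL-2, 4.45, 3.88 and 3.08 with WT IL-2 and 4.23, 3.11 and 4.15 with ortho IL-2. Its lowest cytokine library lay just above the highest library without IL-2. Mrpl20, a protein with a bacterial counterpart, rose 1.42-fold with each cytokine. Mrpl17, whose bacterial counterpart also borders the peptide exit, rose 1.41-fold with each cytokine.

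A further 6 large-subunit members rose in both comparisons by 1.15-fold to 1.27-fold: Mrpl2, Mrpl10, Mrpl36, Mrpl42, Mrpl43 and Mrpl51. Mrpl28, Mrpl38, Mrpl46 and Mrpl53 passed the test with ortho IL-2 alone, at log2 fold changes of 0.38, 0.57, 0.28 and 0.42, where WT IL-2 gave 0.28, 0.37, 0.17 and 0.27. For none of these 4 did the direct comparison of the cytokines pass the test, so no difference between the cytokines was shown. For Mrpl38, a mitochondria-specific protein with 5.74, 5.86 and 6.30 CPM without IL-2, 9.50, 7.15 and 6.35 with WT IL-2 and 9.08, 7.42 and 9.81 with ortho IL-2, both cytokine groups lay above the no IL-2 group.

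The 3 paralogs of the bacterial S18 protein took different values. Mrps18b rose from 6.58, 7.59 and 7.03 CPM without IL-2 to 11.8, 9.29 and 10.5 with WT IL-2 and 12.0, 11.3 and 12.9 with ortho IL-2. All 6 cytokine libraries lay above the no IL-2 group, with log2 fold changes of 0.58 (SE 0.11, edgeR adjusted p = 0.0018) and 0.77 (SE 0.11, adjusted p = 0.00025). Mrps18c, the other paralog of the small subunit, measured 27.1, 25.6 and 23.1 CPM without IL-2, 21.6, 28.0 and 27.9 with WT IL-2 and 25.3, 30.1 and 22.5 with ortho IL-2. Its groups overlapped, the log2 fold change was 0.03 in both comparisons and the 95% interval ran from -0.26 to 0.31 with WT IL-2. Mrps18a, the paralog of the large subunit, had 10.5, 13.5 and 10.9 CPM without IL-2, 15.2, 11.8 and 12.7 with WT IL-2, and 13.7, 11.3 and 15.3 with ortho IL-2. These groups overlapped as well, and values of 0.18 and 0.21 did not pass the test. Whether the paralogs differ in their change was not tested.

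Mrps2, a small-subunit protein with a bacterial counterpart, measured 15.4, 14.5 and 14.5 CPM without IL-2, 22.2, 21.4 and 22.2 with WT IL-2 and 20.7, 17.7 and 21.9 with ortho IL-2. The 3 no IL-2 libraries lay close together and below all others. The log2 fold change was 0.57 (SE 0.08, edgeR adjusted p = 0.00037) with WT IL-2 and 0.45 (SE 0.08, adjusted p = 0.0016) with ortho IL-2. The mitochondria-specific Mrps26 went from 16.8, 19.5 and 19.1 CPM to 30.8, 24.4 and 24.7 with WT IL-2 and 26.4, 25.5 and 31.0 with ortho IL-2. Its groups did not overlap, and it rose 1.44-fold and 1.5-fold.

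Of the remaining small-subunit members, Mrps5, Mrps10, Mrps11, Mrps14 and Mrps34 rose with both cytokines. Mrps11, whose bacterial counterpart lies on the platform of the small subunit, rose 1.42-fold with WT IL-2 and 1.39-fold with ortho IL-2. Mrps34, a mitochondria-specific protein in which inherited mutations cause mitochondrial disease, had 8.67, 10.3 and 10.9 CPM without IL-2, 13.4, 13.5 and 12.6 with WT IL-2 and 12.5, 13.8 and 14.5 with ortho IL-2, again without overlap. Its call in each comparison, like that of Mrpl2, ended when counts were adjusted for transcript GC content, at log2 fold changes that stayed positive. Mrps7, a protein that binds the small-subunit RNA early in assembly in bacteria, passed the test with ortho IL-2 alone (0.28, against 0.19 with WT IL-2).

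Mrps28 was the least abundant member in reads, with 33 to 167 per library. It measured 1.35, 1.84 and 2.02 CPM without IL-2, 2.21, 1.88 and 1.75 with WT IL-2 and 2.58, 2.18 and 2.81 with ortho IL-2. The ortho IL-2 libraries lay above those without IL-2 but not above all of those with WT IL-2. The log2 fold change was 0.19 (SE 0.19, edgeR adjusted p = 0.42) with WT IL-2 and 0.58 (SE 0.18, adjusted p = 0.021) with ortho IL-2, and the latter call ended without no IL-2 library 1 or ortho IL-2 library 3 and under quantile normalization.

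Mrpl9 moved the other way. It encodes a large-subunit protein with a bacterial counterpart and was the member with the most reads, 1691 to 5169 per library. Its level was 108, 113 and 103 CPM without IL-2, 80.2, 83.6 and 81.7 with WT IL-2 and 80.8, 87.8 and 86.9 with ortho IL-2. All 6 cytokine libraries lay below the no IL-2 libraries, and Mrpl9 fell by 0.41 (SE 0.05, edgeR adjusted p = 0.00012) and by 0.35 (SE 0.05, adjusted p = 0.00031) on the log2 scale. It was called lower in both comparisons with the outside share as a covariate and negative, but not called, with the deposited depth.

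Mrps9, a small-subunit protein with a bacterial counterpart, measured 41.4, 48.7 and 45.1 CPM without IL-2, 42.2, 39.7 and 43.0 with WT IL-2 and 38.9, 39.2 and 38.5 with ortho IL-2. Only the ortho IL-2 libraries lay below all of those without IL-2. It fell by 0.21 on the log2 scale with ortho IL-2 (SE 0.06, edgeR adjusted p = 0.018) and was at 0.062 with the deposited depth, and with WT IL-2 the value was -0.11 (adjusted p = 0.17). The call also ended without no IL-2 library 2 or ortho IL-2 library 3.

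Mrpl35, a large-subunit protein with a bacterial counterpart that was singled out after its values were seen, had the widest spread within groups. It measured 82.8, 62.6 and 43.4 CPM without IL-2, 35.3, 26.0 and 48.6 with WT IL-2 and 45.7, 25.2 and 18.8 with ortho IL-2, and the groups overlapped. The share of reads outside transcripts in the same libraries was 43.3%, 38.9% and 39.3%, then 31.1%, 29.1% and 34.9%, then 33.0%, 29.5% and 25.7%. In each group the library with the largest outside share had the most Mrpl35. The log2 fold change was -0.79 (SE 0.34, edgeR adjusted p = 0.083) with WT IL-2 and -1.08 (SE 0.35, adjusted p = 0.024) with ortho IL-2, and it was 0.64 with ortho IL-2 when that share was a covariate. Leaving out no IL-2 library 1 or 2 or ortho IL-2 library 2 or 3 also ended the call.

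**Figure D3:**
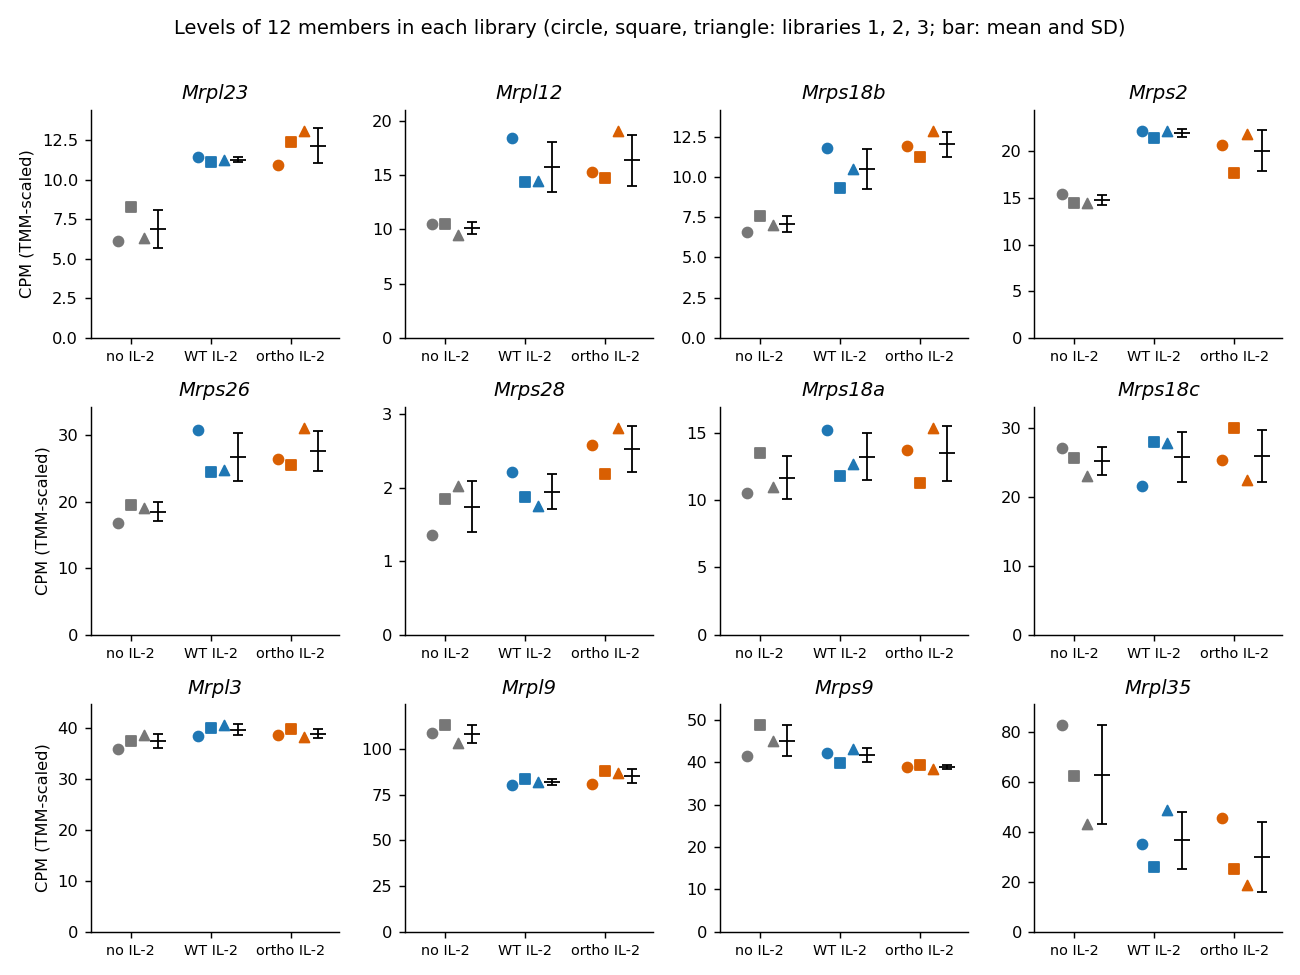
TMM-scaled CPM (vertical axes, from 0) of 12 members in each library without IL-2 (grey), with WT IL-2 (blue) and with ortho IL-2 (orange), with the mean and SD of 3 libraries beside each group. Mrpl23, Mrpl12, Mrps18b, Mrps2 and Mrps26 have both cytokine groups above the no IL-2 group, Mrpl9 has both below it, and Mrpl35 is spread over 18.8 to 82.8 CPM.

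The following members did not pass the test in either comparison. Mrpl3, which reaches towards the peptidyl transferase centre, measured 35.9, 37.5 and 38.6 CPM without IL-2, 38.5, 39.9 and 40.6 with WT IL-2 and 38.6, 39.8 and 38.2 with ortho IL-2. Its groups overlapped, and the 95% interval of its log2 fold change with WT IL-2 ran from -0.03 to 0.20. Mrpl44, a mitochondria-specific protein linked to inherited cardiomyopathy, had log2 fold changes of 0.00 and -0.01. Mrps12, the counterpart of the bacterial protein that carries streptomycin resistance mutations, had 0.15 and 0.11. Mrps16 and Mrps22, both linked to inherited mitochondrial disease, had 0.11 and 0.20, and 0.10 and 0.02. Mrps24 had 0.25 with WT IL-2 and 0.39 after ortho IL-2 (edgeR adjusted p = 0.057). Mrps30 had 0.04 and 0.14, and Mrps36 had -0.10 and -0.14. The high-level members Mrps21 (0.15 and 0.07) and Mrpl30 (0.07 and -0.02) and the low-level Mrps25 (0.08 and 0.07) were among them too.

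Without the 2 libraries that stood apart, WT IL-2 library 1 and ortho IL-2 library 3, 16 members were called higher and 1 lower with WT IL-2, and 25 and 3 with ortho IL-2. This alternative was chosen after seeing the data. Of all genes, 27.2% were then called higher and 26.3% lower with WT IL-2, where 21.1% of members were called higher. With ortho IL-2 these shares of all genes were 30.3% and 28.8%, where 32.9% of members were called higher. Of the members called higher, 12 of 20 with WT IL-2 and 13 of 26 with ortho IL-2 kept their call under every alternative except the outside-share covariate, among them Mrpl12, Mrpl17, Mrpl20, Mrpl23, Mrps2, Mrps5, Mrps10, Mrps11, Mrps14, Mrps18b and Mrps26 in both. The call ended without 1 library for 7 of 21 members called with WT IL-2 and 13 of 29 called with ortho IL-2.

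The direct comparison of ortho with WT IL-2, given at different doses, called none of the 76 members and 0 of the 10702 genes (0%) in edgeR's quasi-likelihood test, nor did DESeq2. At an unadjusted p under 0.05, edgeR had 1 member, Mrps28, and 149 genes (1.39%). Without WT IL-2 library 1 these numbers were 8 and 2616, again with none called. The members' log2 differences ran from -0.29 for Mrpl35 to 0.39 for Mrps28, with a median of 0.01. The 95% interval of the difference lay within 1.5-fold in either direction for 74 of 76 members, and the other 2 were Mrpl35 (-1.07 to 0.48) and Mrps28 (0.01 to 0.77). Mrps5 and Mrps9 were the 2 members (2.63%) whose ortho IL-2 libraries all lay below the WT IL-2 libraries, where 2.23% of all genes did. No member's groups were separated in the other direction, against 2.42% of all genes.

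The members are spread over 17 chromosomes, with at most 10 on one, and the chromosome and strand of all 76 matched the GRCm38 annotation (mm10). Mrpl23 lies at chr7:142532686-142540747 on the plus strand with 4 exons, and Mrpl12 at chr11:120484613-120489065 on the plus strand with 5. Mrps18b lies at chr17:35910379-35916389 on the minus strand with 8 exons, Mrpl9 at chr3:94443318-94451130 on the plus strand with 8, and Mrpl35 at chr6:71812997-71826969 on the minus strand with 5. In GENCODE M21, 32 members share exonic bases with another gene, 7 of them over 25% of their exonic bases. Mrpl53 (88.0%), Mrps34 (77.8%), Mrps25 (69.8%) and Mrps18b (30.5%) are among these, and Mrpl43 (33.4%) overlaps Twnk, the mitochondrial DNA helicase, on the opposite strand. These shares cover all exons GENCODE lists for a gene, not only the transcript that was counted. Whether the authors' counting used strand is not given in the sources used here. Reads in shared bases therefore cannot be assigned here to the member or its partner. Some partners, such as Nme3 for Mrps34, lie on the same strand, where strand would not separate them. For 7 members the tables list several transcripts, and the 1 with the most reads was used.

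A protein-coding gene starts within 1000 bases upstream on the opposite strand of 17 of 76 members (22.4%), against 1119 of 9636 protein-coding genes tested (11.6%). Mrps18b, which rose, faces Ppp1r10 at 45 bases, and the log2 fold change of Ppp1r10 with WT IL-2 was -0.02. Mrpl30, which did not pass the test, faces Mitd1 at 66 bases, and Mitd1 rose by 0.57. Mrpl41, at -0.01, faces Pnpla7 at 935 bases, and Pnpla7 fell by 1.18. Mrpl2, at 0.30 with WT IL-2, faces Klc4 at 207 bases, and Klc4 fell by 0.35 (edgeR adjusted p = 0.0087). Member and neighbour shared a sign in some pairs and not in others. Mrps34 was at 0.41 and its neighbour Eme2 at 0.56, and Mrps27 was at 0.27 and its neighbour Ptcd2 at 0.17. Neither Eme2 nor Ptcd2 passed the test. These neighbours were named after their values were seen, and whether members and neighbours change together was not tested. Mrpl46 and Mrps11 overlap head to head on chromosome 7, Mrpl46 on the minus strand from 78775236 to 78783531 and Mrps11 on the plus strand from 78783119 to 78792989, and their log2 fold changes with WT IL-2 were 0.17 and 0.51.

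Promoter sequences were taken from RefSeq (GRCm38.p6), from 250 bases before to 50 after a start listed for each gene, and matched 67 of 76 members. Both strands were searched for 4 short words known from factors that act on nuclear genes of mitochondria or on growth: CACGTG (the E-box word bound by Myc), the NRF1 word, CCGGAAG (ETS factors such as GABPA) and AAGATGGC (YY1). The promoters shown are those of members named among the rises, and of Mrpl9, the member lower with both cytokines. Capitals mark these words on either strand. They are Mrpl23 at chr7:142532782-142533081 (plus strand), Mrpl12 at chr11:120484387-120484686 (plus), Mrps18b at chr17:35916391-35916690 (minus), Mrps26 at chr2:130563507-130563806 (plus), Mrps11 at chr7:78782881-78783180 (plus) and Mrpl9 at chr3:94443086-94443385 (plus). The windows follow a start listed by RefSeq, which need not be the outermost start of the gene. For Mrpl23 the whole window lies downstream of the RefSeq start of the gene (142532467) and of its GENCODE start (142532686). It therefore holds no sequence upstream of either.
Mrpl23: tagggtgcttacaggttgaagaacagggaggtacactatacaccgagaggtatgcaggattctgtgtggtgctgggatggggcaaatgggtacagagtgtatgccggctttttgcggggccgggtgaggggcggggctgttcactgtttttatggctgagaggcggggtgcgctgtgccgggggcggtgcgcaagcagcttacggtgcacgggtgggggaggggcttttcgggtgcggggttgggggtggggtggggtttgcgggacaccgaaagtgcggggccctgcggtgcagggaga
Mrpl12: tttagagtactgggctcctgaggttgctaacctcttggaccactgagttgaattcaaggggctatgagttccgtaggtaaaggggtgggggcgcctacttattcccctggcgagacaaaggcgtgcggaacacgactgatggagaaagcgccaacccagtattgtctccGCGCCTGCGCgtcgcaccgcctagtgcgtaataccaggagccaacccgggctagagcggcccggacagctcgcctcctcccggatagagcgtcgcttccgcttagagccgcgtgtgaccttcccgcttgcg
Mrps18b: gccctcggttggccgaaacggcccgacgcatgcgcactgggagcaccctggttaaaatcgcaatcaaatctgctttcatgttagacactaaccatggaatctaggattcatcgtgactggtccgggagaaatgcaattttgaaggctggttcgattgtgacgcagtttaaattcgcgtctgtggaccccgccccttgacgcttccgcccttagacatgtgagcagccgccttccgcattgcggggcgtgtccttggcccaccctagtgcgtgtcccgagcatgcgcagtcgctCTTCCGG
Mrps26: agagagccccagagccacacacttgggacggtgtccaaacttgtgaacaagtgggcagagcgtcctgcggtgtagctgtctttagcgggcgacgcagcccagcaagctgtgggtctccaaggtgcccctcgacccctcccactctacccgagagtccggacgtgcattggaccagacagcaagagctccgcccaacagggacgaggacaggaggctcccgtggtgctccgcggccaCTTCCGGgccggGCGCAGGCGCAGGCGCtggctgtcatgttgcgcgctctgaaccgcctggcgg
Mrps11: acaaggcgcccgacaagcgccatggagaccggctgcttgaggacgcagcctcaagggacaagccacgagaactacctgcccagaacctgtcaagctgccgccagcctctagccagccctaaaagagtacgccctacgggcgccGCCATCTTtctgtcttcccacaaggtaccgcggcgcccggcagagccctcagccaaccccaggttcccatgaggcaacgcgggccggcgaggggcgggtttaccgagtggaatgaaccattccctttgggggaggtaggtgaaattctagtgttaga
Mrpl9: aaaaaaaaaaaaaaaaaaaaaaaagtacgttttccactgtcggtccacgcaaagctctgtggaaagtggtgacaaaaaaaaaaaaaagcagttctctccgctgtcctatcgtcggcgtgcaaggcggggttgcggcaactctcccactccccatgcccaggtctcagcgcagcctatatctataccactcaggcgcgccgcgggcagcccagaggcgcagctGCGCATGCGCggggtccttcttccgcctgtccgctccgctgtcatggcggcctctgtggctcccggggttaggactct

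The Mrpl12 and Mrpl9 promoters each held 1 NRF1 word, although Mrpl12 rose and Mrpl9 fell. Mrps26 held 2 NRF1 words that share bases and 1 ETS word, Mrps18b held 1 ETS word, and Mrps11 held 1 YY1 word. In the Mrpl23 window none of these words was found, which says only that these letters are not in it. A gene counted where any of its listed windows held the word. Over the 67 members, the YY1 word was found in 12 (17.9%), against 5.98% of the 7923 tested genes with a promoter, and the ETS word in 24 (35.8%), against 22.8%. The NRF1 word was found in 12 members (17.9%), against 12.7%, and the E-box word in 5 (7.46%), against 12.3%. At least 1 of the 4 words was found in 43 members. The ETS and YY1 words can share letters, but in the 3 members with both they did not overlap. GGGCGG, the SP1 word, was found in 33 members (49.3%), against 70.1%, and CCAAT in 27 (40.3%), against 43.4%.

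The calls were set beside the words. With WT IL-2, 3 of 12 members with the NRF1 word rose and 16 of 55 without it. For the ETS word these numbers were 6 of 24 and 13 of 43, and for the YY1 word 3 of 12 and 16 of 55. The E-box word was in 5 members, Mrpl2, Mrpl20, Mrpl36, Mrpl37 and Mrps18c, of which the first 3 named rose. For the SP1 word the counts were 12 of 33 members with it and 7 of 34 without it, and 14 of 33 and 9 of 34 for ortho IL-2, and for CCAAT they were 6 of 27 and 13 of 40 with WT IL-2. Over all tested genes with a promoter, WT IL-2 calls in the higher direction were 28.1% of those with the NRF1 word, 24.5% with the ETS word, 26.4% with the YY1 word, 27.6% with the SP1 word, 24.3% with CCAAT and 293 of 978 genes with the E-box word. In the same order, the shares among genes without the word were 25.8%, 26.5%, 26%, 22.5%, 27.4% and 25.5%. With ortho IL-2, 31.3% of all such genes with the SP1 word were called higher, and 25.7% without it. A match is a run of letters, not a measured binding site, and none of these shares was tested.

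The genes known to regulate nuclear genes of mitochondria were measured beside the members. Pprc1, a coactivator of the PGC-1 family, rose 4.94-fold with WT IL-2 and 5.27-fold with ortho IL-2, from 5.81 to 6.38 CPM without IL-2 to 26.8 to 34.2 with cytokine. Myc, a growth-promoting transcription factor, rose 5.48-fold and 5.40-fold. Esrra, the nuclear receptor ERRα, rose 1.64-fold and 1.70-fold, and Nrf1 1.16-fold and 1.17-fold. Gabpa was at -0.17 on the log2 scale with WT IL-2 (edgeR adjusted p = 0.17) and at -0.27 with ortho IL-2 (adjusted p = 0.032), the latter at 0.0013 with the deposited depth. Yy1 did not pass the test in either comparison, and Ppargc1a did not pass the filter. Foxp3, the defining factor of these cells, rose 1.62-fold and 1.72-fold, and Il2ra, the IL-2 receptor alpha chain, 4.11-fold and 3.98-fold.

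Other genes of mitochondrial translation were followed in lists. Of 8 mitoribosomal proteins whose symbols fall outside the naming pattern, 1 rose with WT IL-2 and 2 after ortho IL-2. Chchd1, a small-subunit protein, rose 1.24-fold and 1.22-fold, Gadd45gip1 of the large subunit rose 1.24-fold with ortho IL-2, and Dap3 and Ptcd3 of the small subunit had log2 fold changes of 0.02 and 0.04 with WT IL-2. Of 31 assembly and rRNA modification genes, 6 rose and 1 fell with WT IL-2 and 10 rose and 2 fell with ortho IL-2. C1qbp, a matrix protein needed for mitochondrial translation, rose 1.78-fold and 1.70-fold, and Noa1, a GTPase of small-subunit assembly, also 1.78-fold and 1.70-fold. Of 19 translation factors, 4 rose and 3 fell with WT IL-2, and 4 and 2 with ortho IL-2. Tufm, the elongation factor that delivers tRNA, rose 1.34-fold and 1.44-fold, its exchange factor Tsfm 1.39-fold and 1.44-fold, while the initiation factor Mtif3 fell by 0.37 and by 0.32 on the log2 scale.

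Of 16 mitochondrial aminoacyl-tRNA synthetases, 7 rose and 2 fell with WT IL-2, and 8 and 2 with ortho IL-2, with Tars2, Nars2 and Mars2 at 1.30-fold to 1.38-fold. Of 27 genes of mitochondrial DNA transcription and RNA handling, 8 rose and 5 fell with WT IL-2, and 9 and 6 with ortho IL-2. Rexo2, a mitochondrial oligoribonuclease, rose 3.73-fold and 3.67-fold, and Tbrg4 rose 1.72-fold and 1.82-fold, while Polg2, the accessory subunit of the mitochondrial DNA polymerase, fell by 0.59 and by 0.50 on the log2 scale. Polrmt, the mitochondrial RNA polymerase, rose 1.34-fold and 1.42-fold, and Lrpprc, which stabilises mitochondrial mRNA, 1.16-fold and 1.13-fold. Tfam, the packaging and transcription factor of mitochondrial DNA, had -0.15 and -0.20 and did not pass the test.

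The nuclear-encoded partners of the proteins made by the mitoribosome, and the proteins of the cytosolic ribosome, were counted beside the members. Of 79 nuclear-encoded respiratory chain and ATP synthase subunits, 33 rose and 4 fell with WT IL-2 (median log2 fold change 0.20), and 46 rose and 5 fell with ortho IL-2 (median 0.23). Atp5b and Atp5a1, the catalytic-core subunits of ATP synthase, rose 1.40-fold and 1.23-fold with WT IL-2, and Atpif1, the inhibitor of that enzyme, fell by 0.51 on the log2 scale. Of 82 cytosolic ribosomal protein genes, 6 rose and none fell with WT IL-2 (median 0.03), and 14 rose and 1 fell with ortho IL-2 (median 0.06). Rpl7l1, Rpl4 and Rpl36al were among the 6, at 1.12-fold to 1.32-fold. The differences between these lists and the members were not tested.

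**Figure D4:**
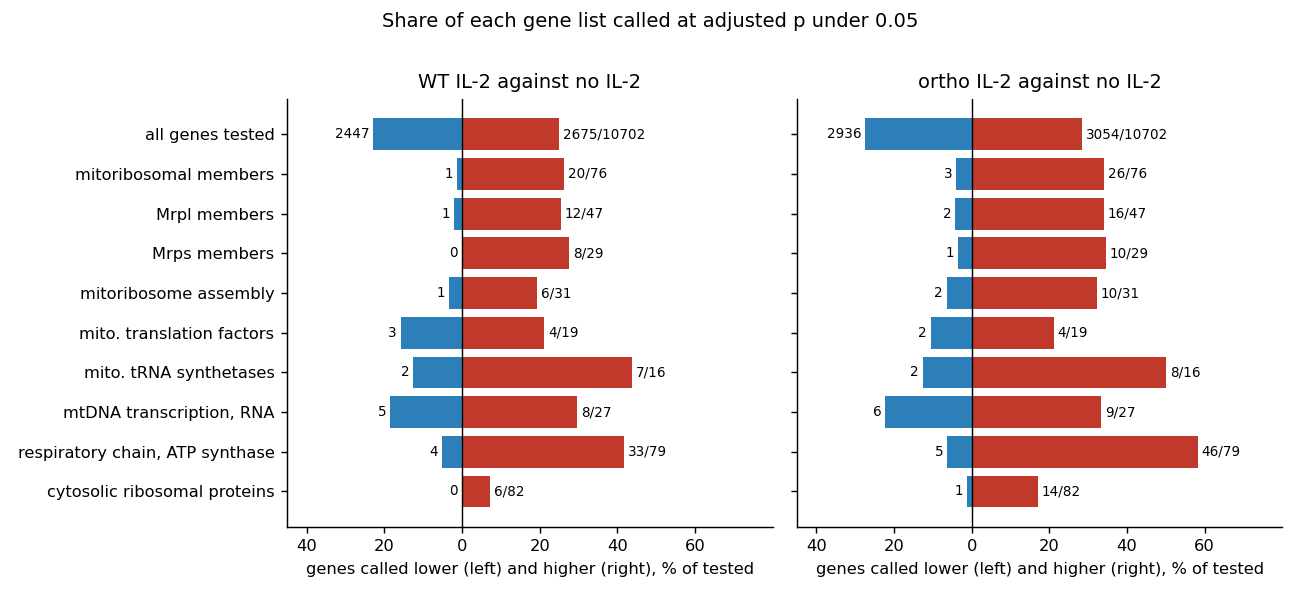
Percentage of the tested genes of each list called higher (red, to the right) and lower (blue, to the left) at an adjusted p under 0.05, with the counts beside the bars, for WT IL-2 (left panel) and ortho IL-2 (right panel) against no IL-2. The members were called higher at 26.3% and 34.2%, beside 25.0% and 28.5% of all genes, and lower at 1.32% and 3.95%, beside 22.9% and 27.4%.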

How the data were processed

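Poly(A) RNA-seq was measured in 9 libraries, 3 per group. The authors deposited 1 table per library with read counts and RPKM per transcript on mm10. Per the submitters' processing notes, edgeR, Bowtie2, bedtools 2.25.0, SAMtools 0.1.8 and TopHat2 were used, and their settings are not known here. For each symbol the transcript with the most summed reads was taken from the 31682 rows. Genes with at least 1 RPKM in at least 3 libraries were fitted with edgeR 4.0.16 (R 4.3.3) on the deposited counts with TMM scaling, 1 mean per group over all 9 libraries, and a two-sided quasi-likelihood test with Benjamini-Hochberg adjustment over 10702 genes at 0.05. CPM and scaled RPKM use TMM-scaled numbers of reads in the tested genes. Standard errors and 95% intervals come from the fit's information and its quasi-dispersion. The fit was run on simulated counts with the same spread for all genes. These had no library that stood apart and no difference in the outside share, so they do not test the fit under those features.

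The members and lists were chosen with earlier results of these data known. Members named with values were, in each comparison with no IL-2, up to 8 called members by size of rise and up to 5 by size of fall whose groups do not overlap, the 3 highest and 3 lowest by RPKM without IL-2, and a list of members with known roles. The pathway lists give up to 3 genes each by smallest p and a set of regulators. Mrpl35, Mrpl46, Mrps11, Mrpl20, Mrpl52, Mrps5, Mrpl30, Mrpl41 and Mrps27 and the members listed by name in the counts of calls were named after their values were seen where this rule had not named them. Limma 3.58.1 and DESeq2 1.42.0 served as alternatives.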

Additional observations from a re-analysis of the deposited data

How the results depend on the processing

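In all alternatives tried, the median log2 fold change of the members against no IL-2 was positive, from 0.071 to 0.35 for WT IL-2 and from 0.053 to 0.41 for ortho IL-2, and no member was called between the cytokines. In the following, the first set of values is for WT IL-2 and the second for ortho IL-2. With the depth behind the deposited RPKM and no TMM, 46 members were called higher and 0 lower (median 0.35), then 55 and 1 (0.41). Limma on log2(RPKM + 1) gave 43 and 0 (0.31), then 59 and 1 (0.37). On log2(RPKM + 0.1) it gave 43 and 0 (0.35), then 59 and 1 (0.40). Of all genes, 43.3% and 53.3% were called higher with that depth (medians 0.22 and 0.29). Limma called 41.7% and 52.3% of all genes higher with + 1 (0.19 and 0.25), and 42% and 52.4% with + 0.1 (0.22 and 0.28). In these 3 alternatives the ortho against WT IL-2 median of the members was 0.069, 0.062 and 0.071. Gabpa against no IL-2 was at 0.0013, 0.0019 and 0.0021 for ortho IL-2, and Mrps9 at 0.062, 0.062 and 0.065. As deposited, the RPKM sums of the 3 groups, starting from no IL-2, were 524, 643 and 682 for Mrpl and 297, 382 and 397 for Mrps. Quantile normalization gave 3 and 6 lower, with medians of 0.081 and 0.065, where 25.5% and 29.2% of all genes were called lower. Without a filter the medians were 0.19 and 0.20, and filterByExpr gave 0.18 for ortho IL-2. Fitting only the groups compared gave 2 lower for WT IL-2, where 22.7% of all genes were called lower. GC offsets gave 3 and 5 lower, with or without the replicate block. Without the block, 26.9% and 28.2% of all genes were called lower under GC offsets. With the outside share as a covariate, 3 members were called higher (0.071) for WT IL-2, and 0 higher and 1 lower (0.053) for ortho IL-2. Of all genes, 11.4% and 8.64% were then called higher. The ortho IL-2 values of Mrpl35 and Mrpl52 were 0.64 and -0.010. The outside share differs between the groups, and the cause was not tested. Leaving out 1 library gave 14 to 20 higher and 1 to 2 lower (0.11 to 0.17), then 18 to 31 higher and 1 to 4 lower (0.11 to 0.20), and -0.02 to 0.03 between the cytokines. Of all genes, 20.3% to 25.7%, then 23% to 31.6%, were called higher in these fits. Whether replicate numbers pair the libraries cannot be settled from deviations around means of 3 libraries. Correlations of these deviations between same-numbered libraries ran from -0.76 to 0.55, and 3 of 9 exceeded 0.1. The replicate block gave 18 higher and 1 lower, then 26 and 3, where 23.5% and 26.6% of all genes were called higher. Mrpl35 has the least precise values, and Mrps28 and Mrpl55, with few reads, are among those with large standard errors.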
